A study of Mus musculus with 18 samples.

Results

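Matrix metalloproteinases (MMPs, genes named Mmp), the secreted ADAMTS proteases (Adamts) and the tissue inhibitors of metalloproteinases (Timp) form the families described here. All protein-coding genes of the deposited count table whose symbol was Mmp plus a number, Adamts plus a number, or Timp1 to Timp4 were taken, which gave 45 members among 49585 genes: 22 Mmp, 19 Adamts and 4 Timp genes. Mmp1a fits the symbol rule but is annotated as a polymorphic pseudogene and was not counted as a member.

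MMPs and ADAMTS proteases are zinc-dependent enzymes that are made as inactive proforms and, once activated, cut collagens, proteoglycans and other components of the extracellular matrix. TIMPs bind the active site of MMPs and of some ADAM and ADAMTS proteases and block it. In inflamed joints and skin these enzymes are made by neutrophils, macrophages, fibroblasts and epithelial cells, and leukocytes use some of them when they cross basement membranes.

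RNA was sequenced from CD45+ leukocytes of mice that express Kaede, a protein that UV light turns from green to red, so that red cells found later in a draining lymph node had left the lit tissue. All inflamed mice were Kaede recipients of in vitro polarized OT-II Th1 cells, aged 6 to 10 weeks, immunized with OVA in CFA and challenged 10 days later with heat-aggregated OVA (HAO) in the footpad (joint) or the ear pinna (skin). The tissue was photoconverted on day 3 and harvested 24 hours later, and viable CD45+ Kaede red+ cells were sorted from the tissue (nonmigrated) or from the draining node (migrated). The series has 18 libraries in 6 groups of 3: joint nonmigrated, joint migrated, skin nonmigrated, skin migrated, and cells of the joint-draining and skin-draining nodes at steady state.

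Each inflamed library came from a pool of 8 to 18 matched male and female mice, so the spread between these replicates is that between pools. The sources used here give no pool size or sex for the steady-state libraries. The steady-state libraries are titled Naive for the skin and PBS for the joint, whose title also carries KG. The labels explain neither KG nor which of the cell transfer, immunization and photoconversion these mice received, and both sources are given as cells that had migrated to the node. The labels do not say whether the steady-state cells were sorted as Kaede red+. In comparisons with them, inflammation and the kind of cells taken cannot be told apart. Assigned counts per library ran from 19239531 to 43814403. The inflamed skin libraries, at 19239531 to 22528895, were all shallower than the joint ones, at 35554698 to 43814403, so site and depth cannot be told apart. They were also shallower than the steady-state skin libraries, at 28577566 to 40055171. Their count columns are named in another style than all others, and the labels do not say what that reflects. Site cannot be told apart from it either. The leukocyte marker Ptprc, which encodes CD45, was at 1156 to 2531 CPM in every library. CPM are counts per 1000000 assigned reads after TMM scaling (a correction of library size), 3 counts equal 0.0616 to 0.180 CPM, and values are given in the order of replicates 1 to 3. Levels of different genes are compared per kilobase of exon.

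Each comparison used the quasi-likelihood F test of edgeR, every p-value was adjusted by Benjamini-Hochberg over all tested genes, and a call needed both an adjusted p below 0.05 and a log2 fold change beyond 1 in either direction. The filter on low counts let 33 of the 45 members into the fit of the 12 inflamed libraries and 26 into the fit of the 12 node libraries. A member at low counts passes that filter through the group where it is high, so counts of called members are descriptions beside the same share over all genes. Of the members, 32 were called in at least 1 of 9 comparisons. For counts over more than 1 comparison, at an unadjusted p or without 1 library, no share over all genes is given. Such counts describe the members only. For alternative fits, totals over all genes are given near the end for some comparisons by DESeq2 and with the replicate block. In bulk samples, fewer cells of a type and less RNA per cell cannot be told apart. Words such as change, fell, rose and went from describe differences between groups. The groups are different cells, and no cells were followed over time. The paper names distinct cell types and adaptation to a new tissue as possible sources of such differences.

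**Figure D1:**
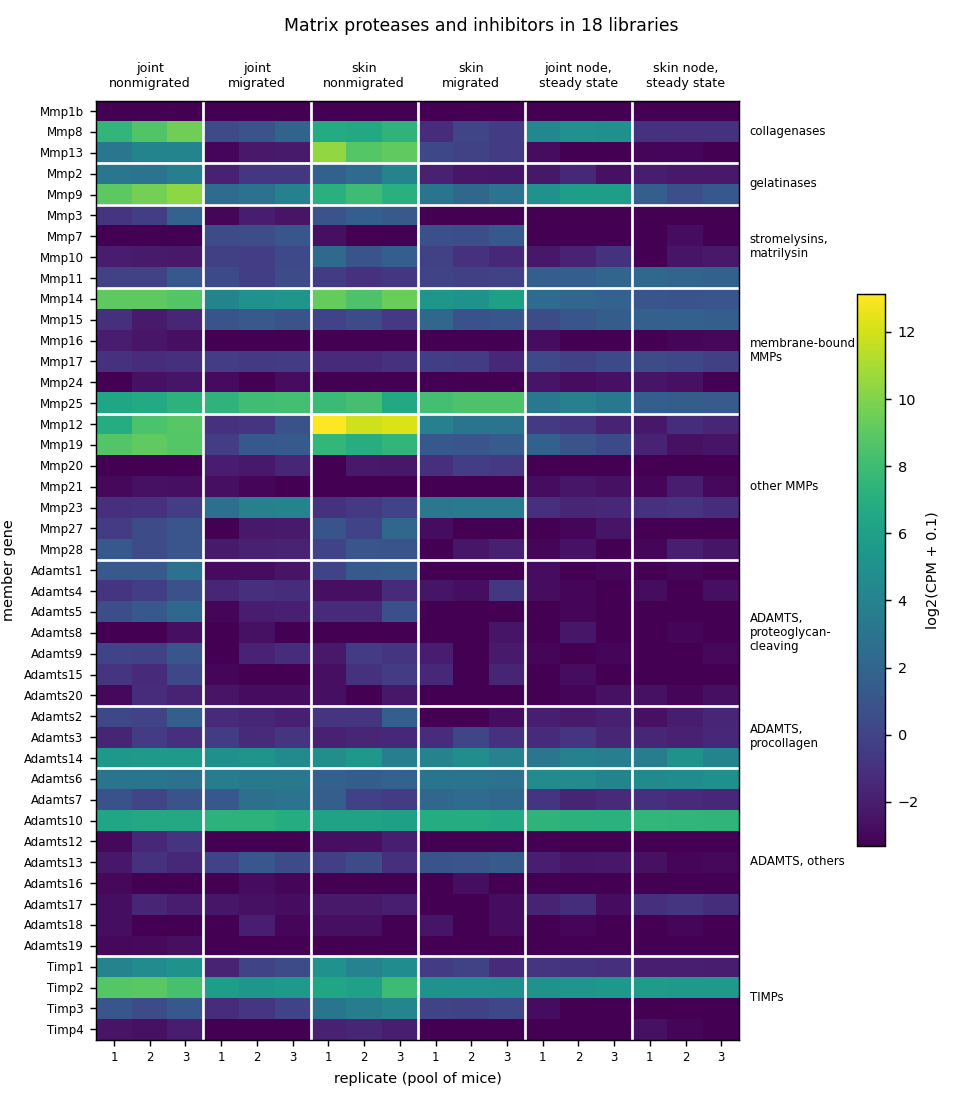
Level of the 45 members (rows, grouped by role) in the 18 libraries (columns, 3 replicates a group), as log2(CPM + 0.1). Mmp12 and Mmp13 are brightest in skin nonmigrated cells, Mmp8, Mmp9 and Mmp19 in joint nonmigrated cells, and Mmp7 and Mmp23 stand out in both migrated groups.

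Of the Mmp members, 9 lie side by side on chromosome 9 within 427072 bases (mm10, chr9:7272514-7699585), in the order Mmp13, Mmp12, Mmp1b, Mmp3, Mmp10, Mmp8, Mmp27, Mmp20 and Mmp7. Mmp1b is on the minus strand and the others on the plus strand. These neighbors did not move together. Mmp13, Mmp12, Mmp3, Mmp8 and Mmp27 were lower in migrated than in nonmigrated cells at both sites, Mmp20 and Mmp7 were higher at both, Mmp10 went opposite ways, and Mmp1b had a count of 0 in all 18 libraries. Upstream sequences are shown for 7 of them, all but Mmp27 and Mmp1b. TGANTCA, the pattern searched for AP-1, a factor that inflammatory signals activate, occurs close to the start in most of the cluster. Promoter windows (RefSeq, GRCm38.p6, 250 bases before to 50 after a start) were in the table for 31 of the 45 members. TGANTCA, which reads the same on both strands, occurred in the windows of 7 of these 31, all of them among the 9 cluster genes, and in those of 8.97% of 27025 genes. N stands for any base, and it was C or G in every member match except that of Mmp20, TGAATCA. Mmp8 and Mmp27 had no match in the window. The 110 bases before the start are given 5′ to 3′, with TGANTCA matches in capitals:
Mmp13, chr9:7272404-7272513, plus strand: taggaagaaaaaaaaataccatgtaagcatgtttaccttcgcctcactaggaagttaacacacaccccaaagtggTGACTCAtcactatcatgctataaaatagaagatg
Mmp12, chr9:7347264-7347373, plus strand: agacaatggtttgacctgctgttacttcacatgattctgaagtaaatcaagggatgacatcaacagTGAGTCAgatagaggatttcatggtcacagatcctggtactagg
Mmp3, chr9:7445712-7445821, plus strand: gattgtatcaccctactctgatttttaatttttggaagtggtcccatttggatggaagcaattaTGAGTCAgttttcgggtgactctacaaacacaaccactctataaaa
Mmp10, chr9:7502232-7502341, plus strand: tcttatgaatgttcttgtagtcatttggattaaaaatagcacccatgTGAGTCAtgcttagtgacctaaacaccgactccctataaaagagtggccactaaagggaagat
Mmp8, chr9:7558319-7558428, plus strand: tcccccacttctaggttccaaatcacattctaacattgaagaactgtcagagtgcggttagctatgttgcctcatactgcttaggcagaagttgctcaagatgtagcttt
Mmp20, chr9:7628121-7628230, plus strand: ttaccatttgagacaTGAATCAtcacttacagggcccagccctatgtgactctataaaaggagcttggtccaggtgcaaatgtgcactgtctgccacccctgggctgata
Mmp7, chr9:7691980-7692089, plus strand: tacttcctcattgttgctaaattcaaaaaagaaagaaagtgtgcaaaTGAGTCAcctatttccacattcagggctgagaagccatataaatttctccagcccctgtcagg

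The first base of the match lay 35 bases before the start for Mmp13, 44 for Mmp12, 46 for Mmp3, 63 for Mmp10 and for Mmp7, and 95 for Mmp20. The Mmp12 and Mmp7 windows are each 1 of 2 in the table, and the other window of each had no match. The same letters thus stood before genes that were higher and genes that were lower in migrated cells. TATAAA, searched on both strands, was in the windows of 8 of the 9 cluster genes, of 10 of the 31 members and of 15.7% of all genes.

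The nonmigrated groups differed in which MMP made up most of the summed Mmp level per kilobase. In skin nonmigrated cells Mmp12, macrophage elastase, held 57.5% ± 2.48 (SD, n = 3) and Mmp13, a collagenase, 16.9% to 25.9%. In joint nonmigrated cells Mmp9 (gelatinase B) held 33.4% ± 3.66, Mmp8 (neutrophil collagenase) 23.4% ± 7.71, Mmp19 20.2% ± 6.86 and Mmp14 (membrane type 1 MMP) 12.8% ± 5.87. The migrated groups were alike in their leading gene: Mmp25, a membrane-anchored MMP known from leukocytes, held 73.3% ± 2.19 in joint migrated and 76.4% ± 3.61 in skin migrated cells, followed by Mmp23 (7.95% ± 1.22) and Mmp14 (7.44% ± 0.572) in the joint and by Mmp14 (9.33% ± 2.33) and Mmp23 (5.17% ± 0.109) in the skin. The summed level itself was 723 ± 257 CPM per kb in joint nonmigrated, 1415 ± 569 in skin nonmigrated, 64.0 ± 19.9 in joint migrated and 84.6 ± 9.20 in skin migrated cells.

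**Figure D2:**
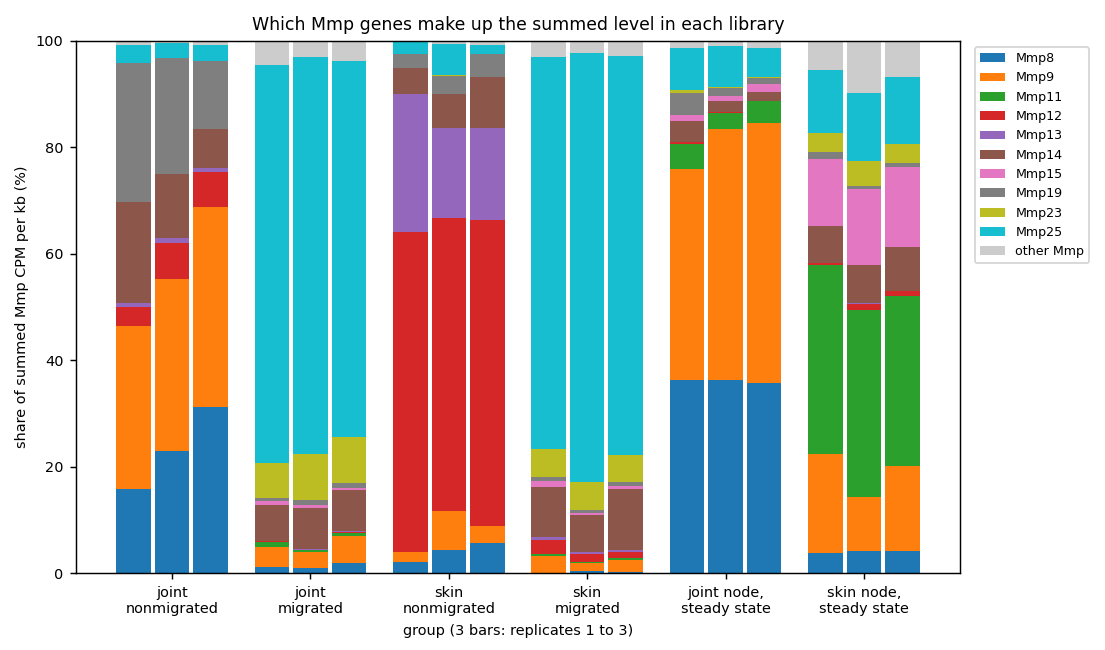
Share of each Mmp gene in the summed Mmp CPM per kb (vertical axis, %), 1 bar a library. Mmp12 and Mmp13 fill most of the skin nonmigrated bars, Mmp8, Mmp9, Mmp19 and Mmp14 most of the joint nonmigrated bars, and Mmp25 between 70.7% and 80.5% of every migrated bar.

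The summed Mmp level divided by the summed Timp level, both per kilobase, was 3.53, 4.84 and 8.03 in joint nonmigrated and 35.6, 26.6 and 12.9 in skin nonmigrated cells. It was 2.72, 5.95 and 6.22 in joint migrated and 7.80, 9.26 and 11.2 in skin migrated cells. The skin libraries were above those of the joint in each compartment, with no overlap. At steady state the ratio was 2.44, 3.42 and 3.02 in the joint-draining node and 0.352, 0.343 and 0.309 in the skin-draining node, so Timp genes outweighed Mmp genes in the skin-draining node alone.

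Joint migrated cells were compared with joint nonmigrated cells, and likewise in the skin, to ask which members mark cells that stay and cells that leave. In the joint 8 members were higher and 18 lower in migrated cells, and 7 tested members were not called. Of all 16777 genes 34.3% were called, 16.0% higher and 18.4% lower, and the median log2 fold change was -2.71 over the tested members and 0.02 over all genes. In the skin 7 members were higher and 17 lower, beside 35.4% of all genes called, 15.7% higher and 19.7% lower, with medians of -2.10 and 0.01. At an adjusted p under 0.001 the members called were 4 higher and 11 lower in the joint, beside 8.80% and 12.6% of all genes, and 3 higher and 14 lower in the skin, beside 8.49% and 12.4%. Of the tested members, 16 were lower and 6 higher at both sites, with no share of all genes called at both sites given beside them.

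Markers of several cell types moved between the same groups. The sum of 6 macrophage and monocyte markers was 4404 to 6155 CPM in joint nonmigrated against 29.6 to 84.4 in joint migrated cells. In the skin it was 1380 to 5157 in nonmigrated against 60.2 to 121 in migrated cells. The sum of 6 neutrophil markers was 4964 to 15250 CPM against 33.2 to 86.1 in the joint, and 1419 to 2498 against 12.4 to 25.7 in the skin. The sum of 8 fibroblast and synovial lining markers was 293 to 557 CPM against 6.47 to 7.49 in the joint, and 248 to 762 against 8.48 to 9.69 in the skin, where Pdgfra had a count of 0 in migrated cells. The nonmigrated CD45+ sorts of both tissues thus held RNA of genes that mark nonhematopoietic cells. The sum of 5 immature granulocyte markers was 4010 to 13457 CPM in joint nonmigrated and 14.2 to 54.1 in skin nonmigrated cells, and Elane had a count of 0 in skin migrated cells. The sum of 5 keratinocyte markers was 26.7 to 318 CPM in skin nonmigrated cells and at most 5.03 in any other inflamed library, with Krt5 and Krt1 at a count of 0 in skin migrated cells. The sum of 4 T cell markers was 132 to 258 CPM in joint nonmigrated and 1029 to 1298 in joint migrated cells, with 4 called higher, and 206 to 546 against 1071 to 1146 in the skin, with 3 called higher. The sum of 3 B cell markers was 55.7 to 146 CPM against 406 to 548 in the joint and 0.780 to 2.76 against 65.1 to 121 in the skin, and all 3 were called higher at both sites. The part of each in the member results was not tested.

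Among the collagenases, Mmp13 stood at 8.84, 16.8 and 17.2 CPM in joint nonmigrated and 0.0205, 0.117 and 0.129 in joint migrated cells. In the skin it stood at 1423, 445 and 556 CPM in nonmigrated and 1.07, 0.799 and 0.621 in migrated cells. The groups did not overlap at either site, and Mmp13 was lower in migrated cells by a log2 fold change of -7.29 ± 0.651 (SE, adjusted p = 4.19e-06) in the joint and -9.93 ± 0.613 (adjusted p = 2.72e-07) in the skin. Mmp8, stored in neutrophil granules, stood at 179, 404 and 742 CPM in joint nonmigrated and 1.29, 1.78 and 3.71 in joint migrated cells. In the skin the values were 109, 103 and 165 against 0.326, 0.999 and 0.621. Mmp8 was lower in migrated cells at both sites, without overlap, with log2 fold changes of -7.61 ± 0.624 (adjusted p = 2.38e-06) and -7.60 ± 0.677 (adjusted p = 3.91e-06). The highest Mmp8 library, joint nonmigrated replicate 3, was also the highest in summed neutrophil markers, and without it the joint change was -7.01. In skin nonmigrated cells the highest Mmp8 library, replicate 3, was the lowest in these markers (1950, 2498 and 1419 CPM). The part of neutrophils was not tested. Without skin nonmigrated replicate 1 the skin change of Mmp13 was -9.23.

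Both gelatinases were lower in migrated cells. Mmp9 stood at 499, 835 and 1298 CPM in joint nonmigrated and 5.36, 7.15 and 14.6 in joint migrated cells, and at 136, 255 and 136 in skin nonmigrated and 8.29, 4.35 and 7.58 in skin migrated cells. The log2 fold changes were -6.60 ± 0.541 (adjusted p = 2.35e-06) in the joint and -4.71 ± 0.503 (adjusted p = 1.43e-05) in the skin. Mmp2 (gelatinase A), best known from fibroblasts, was low throughout, at 8.54, 7.71 and 13.3 CPM in joint nonmigrated and 3.36, 5.32 and 16.4 in skin nonmigrated cells. In migrated cells it reached at most 0.537 CPM in the joint and 0.186 in the skin, with log2 fold changes of -4.55 ± 0.613 (adjusted p = 7.86e-05) and -6.02 ± 0.753 (adjusted p = 4.55e-05). Replicate 3 was the highest for Mmp2 at both sites, and also for the fibroblast gene Col1a1, which stood at 28.8, 34.0 and 90.8 CPM in joint nonmigrated and 17.6, 18.9 and 48.9 in skin nonmigrated cells. Markers of other cell types were highest in replicate 3 too, and the part of fibroblasts was not tested. Without skin nonmigrated replicate 3 the skin change of Mmp2 was -5.07.

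**Figure D3:**
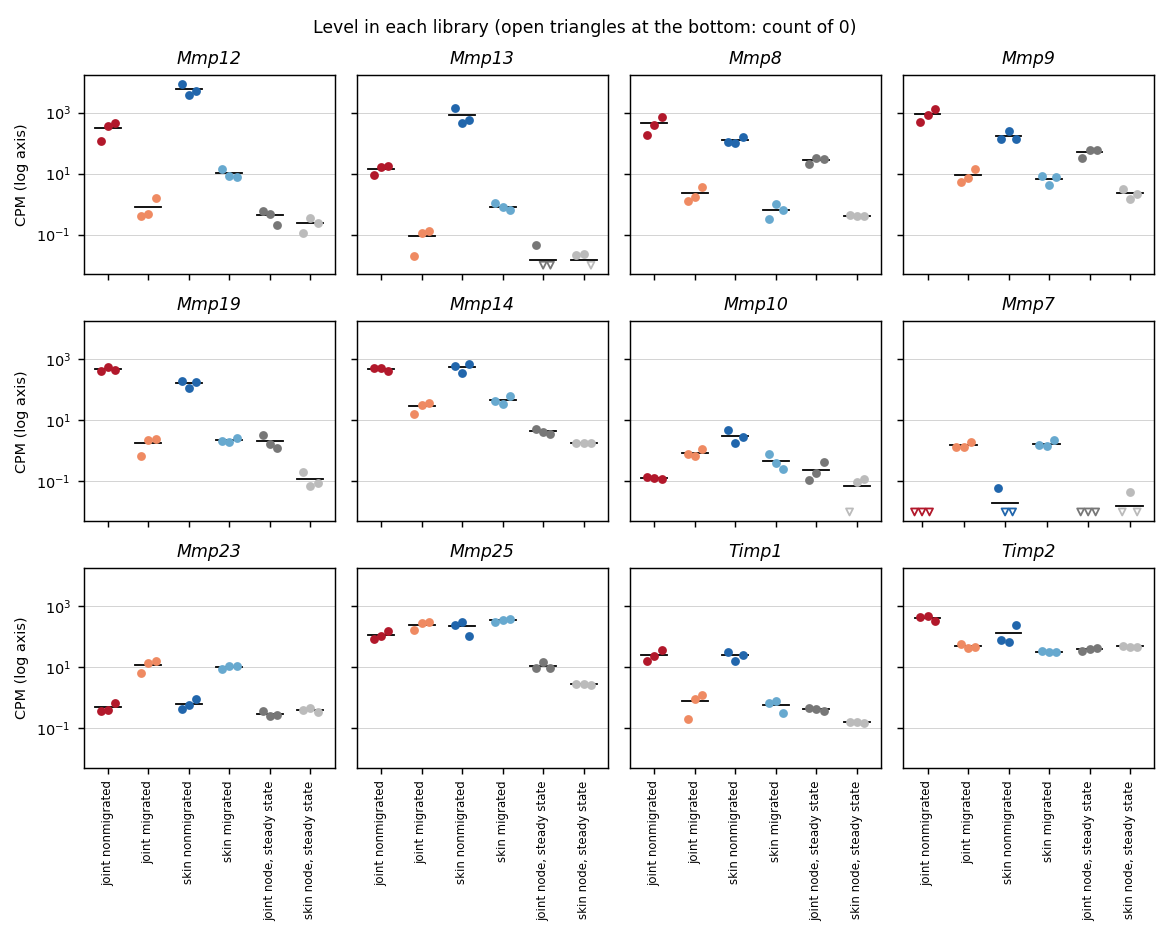
CPM on a log axis in each library (points) of 12 members, with the group mean as a line; open triangles at the bottom of a panel mark a count of 0. Mmp12 runs from 0.112 CPM in a steady-state node to 8948 CPM in a skin nonmigrated library, and Mmp7 has points in migrated groups and almost none elsewhere.

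The stromelysins and matrilysin did not share a direction. Mmp3 (stromelysin 1) was at 0.465, 0.698 and 3.58 CPM in joint nonmigrated, 0.0205, 0.140 and 0.0858 in joint migrated and 1.74, 2.98 and 2.29 in skin nonmigrated cells, with a count of 0 in skin migrated cells. It fell by 4.22 on the log2 scale in the joint (adjusted p = 0.00295) and was at least 49.9-fold lower in the skin, taking 3 counts over the group as the floor (adjusted p = 0.000874). Without joint nonmigrated replicate 3 the joint change of Mmp3 was -2.78 (adjusted p = 0.00560). Mmp7 (matrilysin) ran the other way. It had a count of 0 in all joint nonmigrated libraries and stood at 1.31, 1.38 and 1.97 CPM in joint migrated cells, at least 51.8-fold higher (adjusted p = 1.68e-05). In the skin a single count in 3 nonmigrated libraries faced 1.54, 1.45 and 2.26 CPM in migrated cells, a ratio of 93.5 (95% exact counting interval 16.4 to 3726, adjusted p = 5.98e-05). Mmp7 was thus at 1 to 3 CPM in each of the 6 migrated libraries and at or near 0 in the 6 nonmigrated ones.

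Mmp10 (stromelysin 2) is the member whose direction depended on the site. In the joint it rose from 0.137, 0.133 and 0.120 CPM in nonmigrated to 0.780, 0.701 and 1.14 in migrated cells, a log2 fold change of 2.71 ± 0.507 (adjusted p = 0.000800). In the skin it fell from 4.74, 1.87 and 2.91 CPM to 0.792, 0.400 and 0.266, a log2 fold change of -2.70 ± 0.460 (adjusted p = 0.000417). The joint nonmigrated libraries held only 5, 4 and 4 counts of Mmp10, and the skin migrated ones 17, 8 and 6. The difference between the changes was 5.41 ± 0.684 on the log2 scale (adjusted p = 0.00155). The migrated groups, at 0.266 to 1.14 CPM, overlapped (log2 fold change of joint over skin 0.84 ± 0.455, adjusted p = 0.387), while joint nonmigrated cells were below and skin nonmigrated cells above them. Keratinocyte markers were also highest in skin nonmigrated cells, at a sum of 164, 318 and 26.7 CPM. Their order over the replicates there differed from that of Mmp10, and their part was not tested. Mmp11 (stromelysin 3), at 0.409 to 2.26 CPM over the inflamed libraries, was called at neither site.

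Of the membrane-bound MMPs, Mmp14, an activator of pro-MMP2, was at 524, 522 and 428 CPM in joint nonmigrated and 595, 372 and 688 in skin nonmigrated cells. In migrated cells it stood at 16.9, 32.2 and 37.3 in the joint and 42.2, 35.5 and 64.5 in the skin, lower by log2 fold changes of -4.09 ± 0.346 (adjusted p = 2.88e-06) and -3.54 ± 0.338 (adjusted p = 6.36e-06). Despite that fall, Mmp14 and Mmp23 followed Mmp25 in the summed Mmp level of both migrated groups. Mmp15 was low but rose, from 0.356, 0.133 and 0.241 CPM to 1.83, 2.27 and 1.76 in the joint (log2 fold change 2.96 ± 0.471, adjusted p = 0.000253) and from 0.900, 1.23 and 0.572 to 4.24, 1.70 and 1.99 in the skin (1.55 ± 0.441, adjusted p = 0.0103). The skin call of Mmp15 was lost without skin migrated replicate 1 (log2 fold change 1.04, adjusted p = 0.0581).

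Mmp25, the most abundant Mmp gene of migrated cells per kilobase, was also at high CPM in nonmigrated cells. It stood at 81.2, 107 and 156 CPM in joint nonmigrated and 166, 274 and 303 in joint migrated cells, a log2 fold change of 1.11 ± 0.370 (adjusted p = 0.0233). That call was lost without joint migrated replicate 2 or 3 or without joint nonmigrated replicate 1 or 2 (adjusted p = 0.0650, 0.0687, 0.0926 and 0.0710 in that order). In the skin the values were 241, 309 and 102 CPM against 293, 365 and 371 (0.65 ± 0.367, adjusted p = 0.149). The migrated and nonmigrated groups did not overlap in the joint, and in the skin they overlapped. Mmp17 was at 0.266 to 0.745 CPM over the inflamed libraries and was not called, and Mmp16 and Mmp24 never exceeded 5 counts in any of the 18 libraries.

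**Figure D4:**
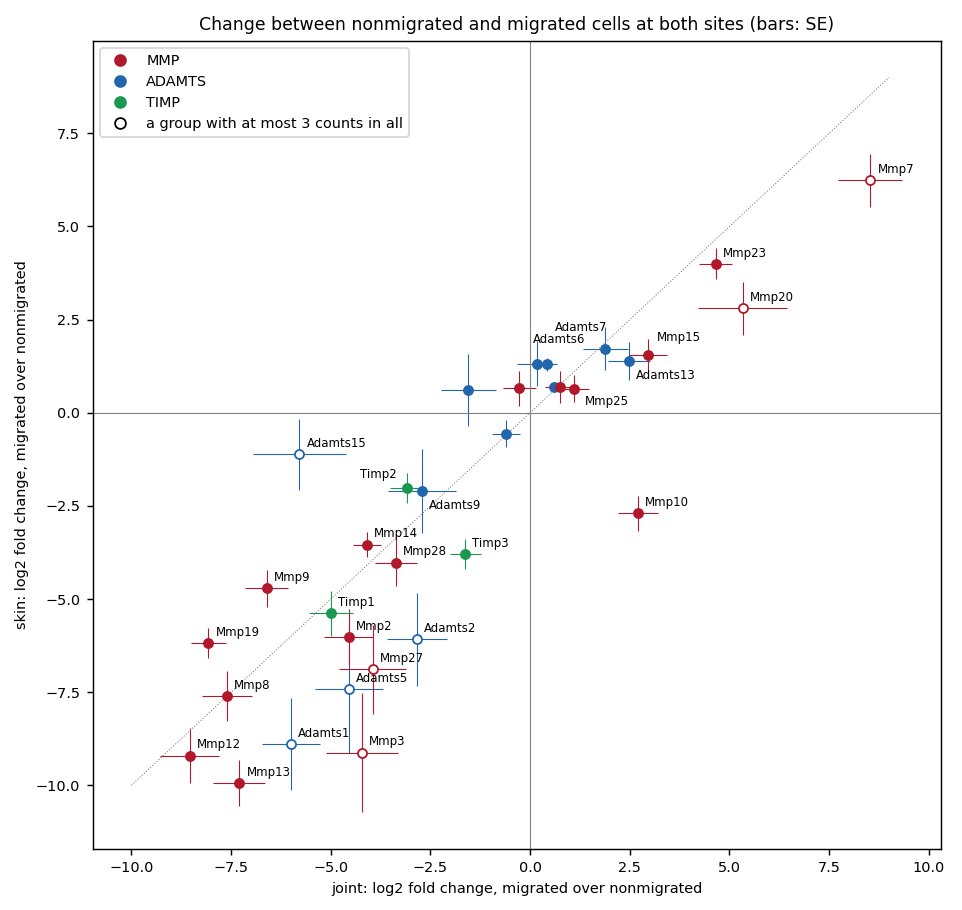
Log2 fold change of migrated over nonmigrated cells in the joint (horizontal) and the skin (vertical) for the 33 members tested, with standard errors as bars. Open points have a group with at most 3 counts in all, whose fitted change is not a bound, and unlabelled points were called at neither site. Most members lie in the lower left or upper right quadrant, and Mmp10 is alone among called members in the lower right, at 2.71 and -2.70.

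Mmp12 reached the highest CPM of any member. It stood at 117, 359 and 464 CPM in joint nonmigrated and 0.411, 0.491 and 1.61 in joint migrated cells, and at 8948, 3918 and 5002 CPM in skin nonmigrated and 14.1, 8.34 and 8.02 in skin migrated cells. The log2 fold changes were -8.54 ± 0.745 (adjusted p = 3.48e-06) and -9.20 ± 0.746 (adjusted p = 2.02e-06), the first being -9.40 without joint migrated replicate 3. Mmp12 exons overlap those of Mmp1b on the opposite strand by 157 bases. Mmp19, a secreted MMP of wide tissue distribution, fell from 427, 561 and 438 CPM to 0.678, 2.24 and 2.40 in the joint (-8.07 ± 0.436, adjusted p = 1.96e-07) and from 193, 119 and 180 to 2.19, 1.95 and 2.66 in the skin (-6.18 ± 0.411, adjusted p = 5.00e-07). Its exons overlap Gm47093 and Tmem198b on the opposite strand. The migrated groups overlapped in Mmp19, and the nonmigrated groups did not.

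Mmp27 and Mmp28 (epilysin) were low members that fell. Mmp27 went from 0.629, 1.33 and 1.95 CPM to 0.00, 0.117 and 0.129 in the joint (log2 fold change -3.95 ± 0.846, adjusted p = 0.00199). In the skin it went from 1.86, 0.877 and 4.26 CPM to 1 count in 3 libraries, a ratio of 155 (95% exact counting interval 27.3 to 6156, adjusted p = 0.000451). Mmp28 went from 2.22, 1.30 and 1.95 to 0.123, 0.187 and 0.214 CPM in the joint (-3.36 ± 0.527, adjusted p = 0.000235) and from 0.900, 1.93 and 1.87 to 0.00, 0.0999 and 0.177 in the skin (-4.02 ± 0.640, adjusted p = 0.000260). The joint change of Mmp27 was -3.34 without joint migrated replicate 1, and the skin change of Mmp28 was -4.92 without skin migrated replicate 3.

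Mmp23, a membrane-tethered MMP without the usual cysteine switch, and Mmp20 (enamelysin, known from teeth) rose. Mmp23 went from 0.356, 0.399 and 0.692 CPM to 6.43, 14.1 and 16.3 in the joint (4.66 ± 0.413 on the log2 scale, adjusted p = 3.88e-06) and from 0.420, 0.585 and 0.884 to 9.03, 10.6 and 11.1 in the skin (4.00 ± 0.418, adjusted p = 1.22e-05). Mmp20 had no count in joint nonmigrated cells and stood at 0.144, 0.117 and 0.236 CPM in joint migrated cells, at least 5.54-fold higher (adjusted p = 0.00270). In the skin Mmp20 stood at 0.00, 0.117 and 0.104 CPM and then at 0.373, 0.699 and 0.576 (2.80 ± 0.718, adjusted p = 0.00782), with at most 14 counts in any library. Of the 5 dendritic cell markers, the summed level was 3780 to 6043 CPM in joint nonmigrated and 1833 to 3330 in joint migrated cells, and 3510 to 5234 against 2523 to 3151 in the skin. Of these 5, Flt3, Zbtb46 and Ccr7 were called higher and Itgax and H2-Ab1 lower in migrated cells at both sites. In the joint, migrated replicate 1 was the lowest of its group for Mmp23 and Mmp25 and for the 5 summed dendritic cell markers (1833 against 2744 and 3330 CPM). It was also the lowest for the summed macrophage and monocyte markers (29.6 against 68.5 and 84.4 CPM) and mast cell markers (28.2 against 126 and 225 CPM). For the summed T cell and B cell markers it was the highest. The part of any of these cell types in these results was not tested.

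The ADAMTS family was split between an abundant pair of genes and a large low group. Per kilobase, Adamts10 and Adamts14 made up most of the summed Adamts level in all 4 inflamed groups. Adamts10, which acts on microfibrils, stood at 86.7, 99.2 and 98.5 CPM in joint nonmigrated and 156, 160 and 116 in joint migrated cells. In the skin it stood at 70.9, 72.0 and 65.0 and then 117, 115 and 107 CPM. The groups did not overlap, but the log2 fold changes of 0.60 ± 0.123 (adjusted p = 0.00143) and 0.70 ± 0.124 (adjusted p = 0.000532) were under the threshold of 1. Adamts14, a procollagen N-propeptidase, was at 13.6 to 45.5 CPM over the inflamed libraries and was called at neither site.

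Of the 7 ADAMTS proteases listed as cutting aggrecan and versican, 5 were tested, and all were low. In migrated cells 4 were lower and 1 was not called in the joint, and 2 were lower and 3 not called in the skin. Adamts1 was at 2.35, 2.36 and 7.22 CPM in joint nonmigrated and 0.0411, 0.0467 and 0.0858 in joint migrated cells (log2 fold change -6.00 ± 0.722, adjusted p = 8.59e-05), and at 0.900, 2.46 and 2.60 in skin nonmigrated cells against a count of 0 in skin migrated cells, at least 43.1-fold lower (adjusted p = 0.000216). Adamts5, a main aggrecanase of mouse cartilage, was at 1.37, 2.16 and 4.42 CPM against 0.0205, 0.140 and 0.172 in the joint (-4.54 ± 0.845, adjusted p = 0.00131), and at 0.300, 0.292 and 1.51 against a count of 0 in the skin, at least 15.7-fold lower (adjusted p = 0.00483). The procollagen protease Adamts2 fell alike, from 1.09, 0.930 and 3.01 CPM to 0.287, 0.234 and 0.172 in the joint (-2.84 ± 0.756, adjusted p = 0.00740) and from 0.480, 0.468 and 3.02 CPM to 1 count in the skin, a ratio of 89.4 (95% exact counting interval 15.6 to 3579, adjusted p = 0.00138). In the joint, replicate 3 of the nonmigrated cells was the highest of the 3 for Adamts1, Adamts5, Adamts2, Mmp3 and Mmp2, as it was for the summed fibroblast markers. In the skin the same held for Adamts1, Adamts5, Adamts2 and Mmp2. Replicate 3 was also the highest for summed neutrophil, mast cell, T cell and B cell markers in the joint. In the skin it was the highest for macrophage and monocyte and for mast cell markers. It was the lowest for macrophage and monocyte markers in the joint and for neutrophil and T cell markers in the skin. The part of any of these cell types was not tested. Without joint nonmigrated replicate 3 the joint log2 fold change was -5.25 for Adamts1 and -2.11 for Adamts2 (adjusted p = 0.0385).

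Of the same group, Adamts15 and Adamts9 were called in the joint. Adamts15 was at 0.465, 0.299 and 1.11 CPM in joint nonmigrated cells against 1 count in joint migrated cells, a ratio of 87.1 (95% exact counting interval 15.1 to 3495, adjusted p = 0.00135), and the skin change missed the threshold (adjusted p = 0.341). Adamts9 was at 0.903, 0.797 and 1.95 against 0.00, 0.210 and 0.343 CPM (-2.71 ± 0.860, adjusted p = 0.0188), a call lost without joint migrated replicate 2 (adjusted p = 0.0559) or joint nonmigrated replicate 3 (adjusted p = 0.0751). In the skin Adamts9 gave an adjusted p of 0.135. Whether the sites differ in these 2 genes was tested by the interaction, which called neither (adjusted p = 0.0952 for Adamts15 and 0.842 for Adamts9). The Adamts9 change was -2.10 without joint migrated replicate 1 and -3.50 without replicate 3. Adamts4, the fifth of these, was called at neither site, with 0.465, 0.731 and 1.59 CPM against 0.246, 0.374 and 0.322 in the joint (-1.55 ± 0.683, adjusted p = 0.0726) and 0.0600, 0.0585 and 0.312 against 0.0931, 0.0499 and 0.532 in the skin (0.61 ± 0.958, adjusted p = 0.607).

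Of the other ADAMTS genes, 3 rose in at least 1 site. Adamts13, which cleaves von Willebrand factor, went from 0.109, 0.399 and 0.271 CPM to 0.883, 2.15 and 1.31 in the joint (2.48 ± 0.533, adjusted p = 0.00201) and from 0.780, 1.23 and 0.364 to 1.86, 1.95 and 2.39 in the skin (1.39 ± 0.509, adjusted p = 0.0353). The skin call of Adamts13 was lost without skin migrated replicate 1 (adjusted p = 0.0535), 2 (0.0612) or 3 (0.0960) or skin nonmigrated replicate 1 (0.0811) or 3, where the log2 fold change was 1.04. Adamts7, which cleaves COMP, went from 1.64, 0.964 and 1.77 to 2.16, 6.63 and 7.53 CPM in the joint (1.89 ± 0.562, adjusted p = 0.0134) and from 3.00, 0.819 and 0.624 to 4.47, 5.39 and 4.70 in the skin (1.72 ± 0.585, adjusted p = 0.0252). The Adamts7 call was lost in the joint without nonmigrated replicate 2 (adjusted p = 0.0557) and in the skin without migrated replicate 2 (0.0595), nonmigrated replicate 2 (0.0827) or nonmigrated replicate 3 (0.0737), and without skin nonmigrated replicate 1 the skin change was 2.75. Adamts6 rose in the skin, from 3.24, 2.81 and 3.43 to 8.34, 7.94 and 7.09 CPM (1.30 ± 0.171, adjusted p = 6.54e-05), and in the joint stood at 7.82, 8.14 and 6.98 against 11.7, 9.74 and 9.46 CPM (0.43 ± 0.160, adjusted p = 0.0376). Among all members, 11 were tested in no fit: Adamts8, Adamts12, Adamts16, Adamts18, Adamts19, Adamts20, Mmp1b, Mmp16, Mmp21, Mmp24 and Timp4. The highest count of these in any library was 15, that of Adamts12 in joint nonmigrated replicate 3.

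The inhibitors were lower in migrated cells as well. Timp1, the secreted inhibitor induced in inflammation, was at 16.1, 24.2 and 35.5 CPM in joint nonmigrated and 0.205, 0.934 and 1.24 in joint migrated cells, and at 32.2, 15.6 and 25.1 in skin nonmigrated and 0.652, 0.799 and 0.310 in skin migrated cells. The log2 fold changes were -4.99 ± 0.561 (adjusted p = 2.00e-05) and -5.38 ± 0.606 (adjusted p = 2.12e-05). Timp2, which also takes part in the activation of pro-MMP2 by MMP14, had the highest mean share of the summed Timp level per kilobase in all 6 groups. It fell from 438, 480 and 318 CPM to 59.1, 41.2 and 44.7 in the joint (-3.09 ± 0.414, adjusted p = 7.51e-05) and from 80.1, 69.5 and 245 to 34.1, 32.1 and 30.5 in the skin (-2.03 ± 0.401, adjusted p = 0.00114). Without skin nonmigrated replicate 3 the skin change of Timp2 was -1.21 (adjusted p = 0.000268). Timp3, the matrix-bound inhibitor, went from 1.97, 1.23 and 2.14 to 0.329, 0.514 and 0.879 CPM in the joint (-1.63 ± 0.389, adjusted p = 0.00395) and from 8.40, 12.3 and 18.1 to 0.931, 0.849 and 1.02 in the skin (-3.79 ± 0.409, adjusted p = 1.56e-05). Timp3 exons overlap Syn3 on the opposite strand.

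The site of inflammation was compared within each compartment. In nonmigrated cells 6 members were higher in the joint and 6 in the skin, beside 14.3% of all genes called, 5.45% and 8.86% in these directions, and 21 tested members were not called. At an adjusted p under 0.001, 1 was higher in the joint and 4 in the skin, beside 1.14% and 1.90% of all genes. Higher in the skin were Mmp13 (log2 fold change of joint over skin -5.83 ± 0.490, adjusted p = 4.04e-05), Mmp10 (-4.57 ± 0.514, adjusted p = 0.000198), Mmp12 (-4.25 ± 0.595, adjusted p = 0.000593) and Timp3 (-2.86 ± 0.380, adjusted p = 0.000453), with no overlap between groups. Without skin nonmigrated replicate 1 the Mmp13 difference was -5.14. Mmp15 (-1.85 ± 0.495, adjusted p = 0.0179) was also higher in the skin, a call lost without joint nonmigrated replicate 2 (adjusted p = 0.0648) or skin nonmigrated replicate 2 (0.0747). Mmp20 was called on 4 counts in the skin against 0 in the joint, at least 2.51-fold, and that call was lost in 7 of the alternatives (adjusted p = 0.0757 to 0.134).

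Higher in joint nonmigrated cells were Mmp9 (2.31 ± 0.443, adjusted p = 0.00334), Mmp19 (1.53 ± 0.322, adjusted p = 0.00541), Timp2 (1.64 ± 0.393, adjusted p = 0.0103), Mmp8 (1.82 ± 0.475, adjusted p = 0.0159) and Adamts6 (1.27 ± 0.170, adjusted p = 0.000463). Mmp8 lost the call without joint nonmigrated replicate 3 (1.22, adjusted p = 0.0618), skin nonmigrated replicate 1 (0.0655) or skin nonmigrated replicate 2 (0.0599), and Timp2 in a fit of only these 2 groups (0.0554). Without skin nonmigrated replicate 3 the difference was 2.46 for Timp2 and 3.88 for Adamts4. Adamts4, an aggrecanase, was at 0.465, 0.731 and 1.59 CPM in the joint and 0.0600, 0.0585 and 0.312 in the skin (2.61 ± 0.835, adjusted p = 0.0375). The Adamts4 call was lost in a fit of only these 2 groups (0.0601) and without joint nonmigrated replicate 2 (0.0641) or 3 (1.98, adjusted p = 0.124) or skin nonmigrated replicate 1 (0.132) or 2 (0.126). Mmp14, at 372 to 688 CPM over both groups, gave a log2 fold change of -0.17 ± 0.305 (adjusted p = 0.710). Immature granulocyte markers, at 4010 to 13457 CPM in the joint and 14.2 to 54.1 in the skin, were also higher in the joint. Within the skin group their sum was 33.6, 54.1 and 14.2 CPM. It was lowest in replicate 3, the highest for Mmp8, and highest in replicate 2, the highest for Mmp9. Their part was not tested.

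In migrated cells 1 of 33 tested members was called by site, Mmp12, lower in the joint, and 0 were higher, beside 1.14% of all genes, 0.578% lower and 0.560% higher. At an unadjusted p under 0.05 there were 9 members, DESeq2 called 1 higher and 2 lower, and at an adjusted p under 0.001 edgeR called no gene (0.00%). Mmp12 was higher in skin migrated cells (log2 fold change of joint over skin -3.59 ± 0.633, adjusted p = 0.0189), and the call was lost without joint migrated replicate 1 (adjusted p = 0.0753) or 2 (0.0933) or skin migrated replicate 1 (0.0690) or 3 (0.0510), and the difference was -4.44 without joint migrated replicate 3. Mmp13 gave -3.19 ± 0.825 (adjusted p = 0.0817), with its groups not overlapping. Mmp12 was thus higher in the skin in both compartments.

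The interaction of site and migration called Mmp10 (above), Timp3 (2.16 ± 0.550, adjusted p = 0.0361) and Mmp19 (-1.89 ± 0.502, adjusted p = 0.0412), 3 of 33 members or 9.09%, beside 6.13% of all genes, 3.96% higher and 2.17% lower. Mmp19 fell further in the joint and Timp3 fell further in the skin. Timp3 lost the call with the replicate block (adjusted p = 0.0515) and without any 1 of 8 libraries (0.0604 to 0.0849), and Mmp19 without any 1 of 9 libraries (0.0579 to 0.101). At an adjusted p under 0.001 edgeR called 0 members, beside 0.0656% of all genes higher and 0.0536% lower, and 8 members had an unadjusted p under 0.05.

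Migrated cells of inflamed mice were then compared with node cells at steady state. In the skin the migrated libraries were shallower than the steady-state ones and their columns were named in another style. Inflammation cannot be told apart from these there. In the joint 12 members were higher and 4 lower, beside 24.2% of 17107 genes called, 16.9% higher and 7.31% lower. In the skin 16 were higher and 3 lower, beside 36.5% called, 21.5% higher and 15.0% lower. Of the 26 members tested, 10 were higher at both sites: Mmp7, Mmp10, Mmp14, Mmp20, Mmp23, Mmp25, Adamts4, Adamts7, Adamts13 and Timp3. The lower members at both sites were Mmp11 and Adamts6. No share of all genes called at both sites is given beside these counts. At an adjusted p under 0.001 the counts were 7 higher and 4 lower in the joint, beside 12.4% and 3.50% of all genes, and 11 higher and 2 lower in the skin, beside 16.6% and 8.51%. Cell type markers moved too, and their part was not tested: 3 B cell markers summed to 2457 to 2805 CPM in the joint-draining and 1567 to 2090 in the skin-draining node at steady state, against 406 to 548 and 65.1 to 121 in the migrated cells. The 5 dendritic cell markers summed to 2168 to 2932 CPM in the joint-draining node against 1833 to 3330 in joint migrated cells, an overlap. Of these, 3 were called higher and 0 lower in the joint. In the skin the sum was 1496 to 2128 CPM at steady state against 2523 to 3151, with 4 called higher and 0 lower. All 6 macrophage and monocyte markers were higher in skin migrated cells, their sum being 60.2 to 121 CPM against 9.96 to 14.2 at steady state. In the joint, where that sum was 29.6 to 84.4 against 54.2 to 92.9 CPM, 2 of them were higher and 1 lower. All 6 neutrophil markers were lower in joint migrated cells (33.2 to 86.1 against 398 to 791 CPM), and in the skin 1 was higher. All 4 mast cell markers were higher in joint migrated cells (28.2 to 225 against 4.57 to 4.85 CPM), as was 1 in the skin.

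**Figure D5:**
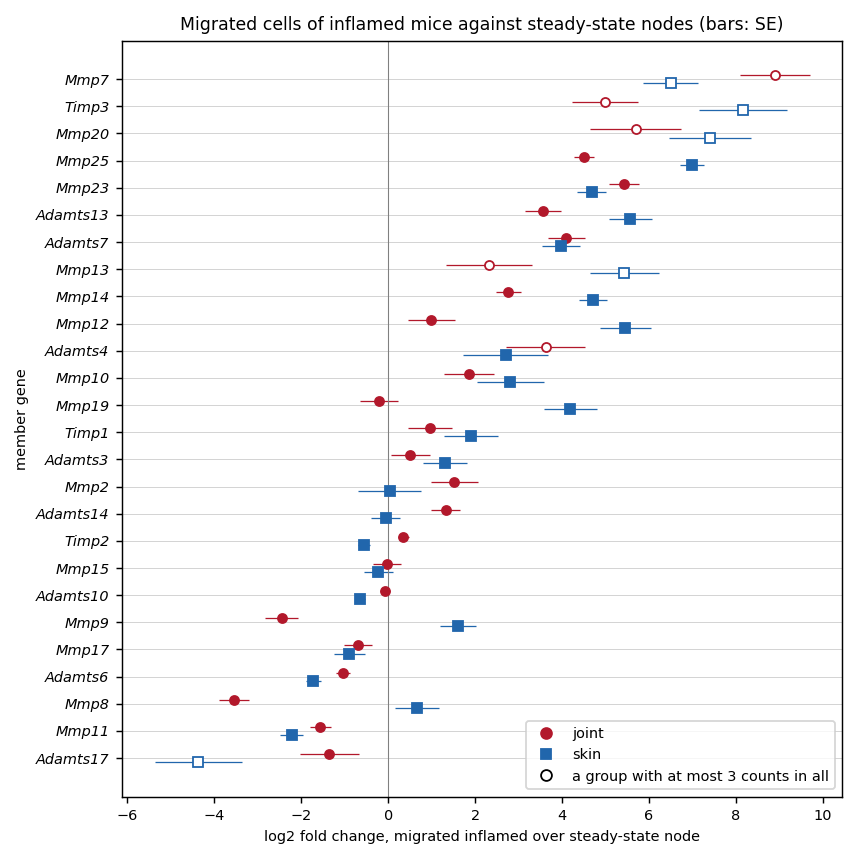
Log2 fold change (horizontal axis, bars are standard errors) of migrated cells of inflamed mice over steady-state node cells for the 26 members tested, joint as circles and skin as squares; open symbols have a group with at most 3 counts in all. Mmp8 and Mmp9 lie left of 0 in the joint, at -3.55 and -2.45, and right of 0 in the skin, at 0.66 and 1.61.

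Mmp25 was at 9.32, 14.4 and 9.79 CPM in the joint-draining and 2.89, 2.80 and 2.54 in the skin-draining node at steady state. Against these, it was higher in migrated cells by log2 fold changes of 4.50 ± 0.231 (adjusted p = 8.96e-09) and 6.99 ± 0.266 (adjusted p = 6.76e-10), the smallest adjusted p of any member in each comparison. Mmp23, at 0.245 to 0.463 CPM at steady state, was higher by 5.42 ± 0.351 (adjusted p = 6.25e-08) and 4.68 ± 0.341 (adjusted p = 7.58e-08). Mmp7 and Mmp20 were absent or nearly so at steady state: Mmp7 had no count in the joint-draining node and was at least 67.8-fold higher in joint migrated cells (adjusted p = 3.50e-06), and had 2 counts in the skin-draining node (ratio 106, 95% exact counting interval 28.7 to 888, adjusted p = 3.80e-06). Mmp20 had no count at steady state and was at least 7.26-fold higher in the joint (adjusted p = 0.00148) and at least 21.9-fold higher in the skin (adjusted p = 9.58e-05). Mmp7, Mmp20 and Mmp23 were thus higher in migrated cells than in both the nonmigrated and the steady-state cells of the same site. The same held for Adamts7 and Adamts13 at both sites and for Mmp10 and Mmp25 in the joint. Against steady state, inflammation and the kind of cells taken cannot be told apart.

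Mmp14 was at 5.27, 4.30 and 3.48 CPM in the joint-draining and 1.88, 1.76 and 1.89 in the skin-draining node, below migrated cells by 2.76 ± 0.284 (adjusted p = 3.42e-06) and 4.71 ± 0.317 (adjusted p = 3.75e-08) on the log2 scale. Adamts13 (3.56 ± 0.415 and 5.57 ± 0.497, adjusted p = 1.08e-05 and 5.12e-07) and Adamts7 (4.10 ± 0.434 and 3.97 ± 0.443, adjusted p = 4.41e-06 and 4.24e-06) were higher at both sites. Timp3, with 2 counts in all at steady state, had a ratio of 37.4 in the joint (95% exact counting interval 10.0 to 314, adjusted p = 0.000228) and was at least 37.6-fold higher in the skin (adjusted p = 2.69e-05). Mmp10 was higher by 1.86 ± 0.579 in the joint (adjusted p = 0.0167), a call lost without joint migrated replicate 3 (adjusted p = 0.0609) or joint-draining replicate 1 (0.0728) or 2 (0.0660), and by 2.81 ± 0.770 in the skin (adjusted p = 0.00586). The Mmp10 change was 2.54 without joint-draining replicate 3 in the joint and 2.14 without skin-draining replicate 1 in the skin. Adamts4 had 3 counts in the joint-draining node (ratio 13.6, 95% exact counting interval 4.34 to 68.4, adjusted p = 0.00474), and in the skin its call (2.70 ± 0.980, adjusted p = 0.0270) was lost without skin migrated replicate 3 (1.02, adjusted p = 0.451) or skin-draining replicate 1 (0.0585) or 2 (2.05, adjusted p = 0.101).

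Other members were called higher at 1 site only, and Mmp9, higher in the skin, was lower in the joint. Adamts14 stood at 30.5, 35.9 and 22.6 CPM in joint migrated cells and 8.52, 15.2 and 12.8 in the joint-draining node. In the joint, Adamts14 (1.32 ± 0.334, adjusted p = 0.00505) and Mmp2 (1.52 ± 0.536, adjusted p = 0.0307) were higher. Mmp2, at no more than 0.537 CPM there, lost its call in 9 alternatives (adjusted p = 0.0541 to 0.116), and its log2 fold change was 2.22 without joint-draining replicate 2. In the skin, Mmp12 (5.45 ± 0.584, adjusted p = 2.86e-06), Mmp19 (4.19 ± 0.602, adjusted p = 4.27e-05), Mmp9 (1.61 ± 0.409, adjusted p = 0.00369) and Timp1 (1.90 ± 0.624, adjusted p = 0.0166) were higher. Timp1 lost its call without skin migrated replicate 2 (adjusted p = 0.0723). Mmp13 went from 2 counts to 53 in the skin (ratio 49.8, 95% exact counting interval 13.1 to 422, adjusted p = 5.41e-05). Adamts3, a procollagen protease, stood at 0.326, 0.999 and 0.399 CPM in skin migrated cells and 0.247, 0.185 and 0.275 in the skin-draining node, and was called (1.30 ± 0.506, adjusted p = 0.0367) but lost the call in 8 alternatives (0.0526 to 0.317), down to 0.62 without skin migrated replicate 2. Adamts17 was the member called lower in the skin alone. It stood at 0.359, 0.486 and 0.336 CPM at steady state, 48 counts in all, and had 1 count in skin migrated cells (ratio 25.5, 95% exact counting interval 4.37 to 1029, adjusted p = 0.00177).

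Mmp11 and Adamts6 were lower in inflamed migrated cells. Mmp11 was at 2.96, 2.92 and 4.04 CPM in the joint-draining and 4.60, 4.03 and 3.42 in the skin-draining node and held 34.1% ± 1.84 of the summed Mmp level in the latter. It was lower in migrated cells by -1.56 ± 0.247 (adjusted p = 0.000152) and -2.22 ± 0.270 (adjusted p = 9.37e-06). Adamts6 was at 17.1 to 24.2 CPM in the joint-draining and 22.6, 25.5 and 30.4 in the skin-draining node at steady state, and lower by -1.04 ± 0.157 (adjusted p = 0.000105) and -1.72 ± 0.165 (adjusted p = 1.02e-06). The joint change of Adamts6 was within 1 on the log2 scale without joint migrated replicate 3 (-0.98) or joint-draining replicate 1 (-0.97) or 2 (-0.96).

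At steady state 5 of 26 members were higher in the joint-draining than in the skin-draining node and 0 were lower, by edgeR and by DESeq2, beside 3.89% of all genes called, 3.23% higher and 0.655% lower. The joint libraries here are titled PBS and the skin ones Naive, so site and control type cannot be told apart. At an unadjusted p under 0.05 there were 10 members in either direction, and at an adjusted p under 0.001, 4 were higher and 0 lower, beside 1.40% and 0.0409%. Mmp8 stood at 20.0, 31.5 and 30.0 CPM against 0.426, 0.417 and 0.397, a log2 fold change of 6.01 ± 0.422 (adjusted p = 2.87e-06). Mmp9 stood at 31.8, 59.5 and 59.9 against 3.10, 1.51 and 2.17 CPM (4.47 ± 0.420, adjusted p = 2.64e-05). Mmp19 stood at 3.31, 1.74 and 1.22 against 0.202, 0.0695 and 0.0917 CPM (4.04 ± 0.592, adjusted p = 0.000771), or 4.65 without skin-draining replicate 1. Mmp25 (2.01 ± 0.232, adjusted p = 0.000120) and Mmp14 (1.23 ± 0.304, adjusted p = 0.0253) were the others, and Mmp14 lost its call without joint-draining replicate 1 (adjusted p = 0.0953) or 2 (0.0736) or any skin-draining library (0.0811 to 0.112). Neutrophil markers summed to 398 to 791 CPM in the joint-draining and 10.7 to 17.5 in the skin-draining node, and immature granulocyte markers to 197 to 320 and 2.52 to 4.60. Their part in the Mmp8 and Mmp9 difference was not tested.

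Mmp8 and Mmp9 therefore had different changes against steady state at the sites. In the joint both were lower in migrated cells (Mmp8 -3.55 ± 0.353, adjusted p = 2.48e-06, and Mmp9 -2.45 ± 0.372, adjusted p = 0.000113), while in the skin Mmp9 was higher and Mmp8 missed the threshold (0.66 ± 0.508, adjusted p = 0.265). A test of the difference, chosen after these values were seen, called 0 members higher and 6 lower in the joint than in the skin change, beside 6.11% of all genes called, 2.33% higher and 3.78% lower. DESeq2 called 1 higher, 12 members had an unadjusted p under 0.05, and at an adjusted p under 0.001, 0 were higher and 2 lower, beside 0.193% and 0.696% of all genes. The 6 were Mmp9 (-4.06 ± 0.551, adjusted p = 0.000610), Mmp8 (-4.22 ± 0.624, adjusted p = 0.00121), Mmp25 (-2.49 ± 0.305, adjusted p = 0.000341), Mmp19 (-4.40 ± 0.755, adjusted p = 0.00302), Mmp12 (-4.46 ± 0.797, adjusted p = 0.00386) and Mmp14 (-1.95 ± 0.401, adjusted p = 0.00889). For Mmp12, the migrated groups differed more than the steady-state nodes, which stood at 0.112 to 0.601 CPM, and without joint migrated replicate 3 the difference was -5.29. The steady-state libraries enter the test of the difference, so site and control type (PBS or Naive) cannot be told apart in it.

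Partners of these enzymes were read from 4 lists, beside 16.0% of all genes called higher and 18.4% lower in joint migrated cells and 15.7% and 19.7% in skin migrated cells. Of 14 tested activators and regulators, 10 were lower and 3 higher in joint migrated cells, and 10 lower and 2 higher in skin migrated cells. Lrp1, an endocytic receptor that clears proteases and inhibitors, fell in the joint (-6.38 ± 0.441, adjusted p = 8.00e-07), as did Plau, urokinase (-5.06 ± 0.253, adjusted p = 1.37e-07). The proprotein convertase Pcsk5 went from 0.575, 0.598 and 1.20 CPM to 0.0205, 0.00 and 0.0429 in the joint (adjusted p = 0.00129). Spock2 (2.61 ± 0.286, adjusted p = 1.66e-05) and Plat, tissue plasminogen activator (2.08 ± 0.625, adjusted p = 0.0142), rose in the joint, and so did Spock1, from a count of 0 to 0.123, 0.677 and 0.515 CPM (adjusted p = 0.00103). Of 8 tested ADAM proteases, 4 were lower and 1 higher in the joint and 4 lower and 2 higher in the skin, with Adam15 (-4.61 ± 0.351, adjusted p = 1.45e-06), Adam9 (-3.02 ± 0.276, adjusted p = 4.79e-06) and the TNF sheddase Adam17 (-1.52 ± 0.101, adjusted p = 6.32e-07) the lowest and Adam12 (1.95 ± 0.414, adjusted p = 0.00189) higher in the joint.

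Of 5 tested ADAMTS-like genes, which lack the protease domain, 4 were lower at each site, among them in the joint Adamtsl3, from 0.301, 0.831 and 1.20 CPM to 0.0205, 0.00 and 0.0429 (adjusted p = 0.000609), Adamtsl5 (-2.80 ± 0.455, adjusted p = 0.000298) and Adamtsl1 (-2.62 ± 0.974, adjusted p = 0.0384), and papilin (Papln) was higher in the joint (3.94 ± 0.971, adjusted p = 0.00469). Of 11 tested matrix substrates, 10 were lower in the joint and 11 in the skin. Fibronectin, Fn1 (-8.79 ± 0.593, adjusted p = 6.94e-07), and Col3a1 (-7.93 ± 1.06, adjusted p = 7.32e-05) fell in the joint, and elastin, Eln, went from 2.19, 2.39 and 3.82 CPM to a single count (adjusted p = 8.23e-05). Fn1 stood at 10721, 12416 and 11691 CPM in joint nonmigrated and 1545, 910 and 2636 in skin nonmigrated cells.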

How the data were processed

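The authors trimmed paired 100-base Illumina reads with Trim Galore, aligned them with TopHat2 to mm10 with Ensembl release 87 gene models, and made the deposited counts per gene with HTSeq-count in default settings; tool versions were not given in the sources used here. The counts are raw and no reads were realigned. Reads assigned to no feature (0.0925% to 0.562%) or ambiguous ones (1.84% to 2.37%) stayed out of library sizes. Symbols, biotypes, positions and exon lengths came from GENCODE M21 (49326 of 49585 IDs matched). The kit's strand setting is not given, and exons of 13 members overlap a gene on the opposite strand and 0 on the same strand.

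Counts were tested with edgeR 4.0.16 (glmQLFit, TMM scaling, low-count filter filterByExpr at min.count 10) under R 4.3.3, with DESeq2 1.42.0 as an alternative, after the code was checked on simulated counts. Standard errors were derived from each estimate and the root of its F statistic. Figures used matplotlib 3.10.9. Replicates differed beyond sampling noise in all 18 pairs (chi-square over its degrees of freedom, 17.1 to 137). Intervals and floors cover counting error only.

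Members, lists, the threshold and tests were chosen with earlier results of these data known. Every member could be named; called members are given sample by sample, or by range or pooled counts, and up to 3 genes per direction and list by their joint migration change. That rule foresaw protein features for the printed sequences, which were replaced by promoter windows of 7 of the 9 cluster genes.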

Additional observations from a re-analysis of the deposited data

Results flagged for a closer look

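The results here are those whose change differed between joint and skin by the interaction test. For migrated over nonmigrated cells, Mmp10 differed by 5.41 on the log2 scale, higher in the joint and lower in the skin, Timp3 by 2.16 (a larger fall in the skin) and Mmp19 by -1.89 (a larger fall in the joint). For migrated cells over steady-state node cells, tested after the values were seen, the joint change was below the skin change for Mmp12 (-4.46), Mmp19 (-4.40), Mmp8 (-4.22), Mmp9 (-4.06), Mmp25 (-2.49) and Mmp14 (-1.95). Mmp10 had only 5, 4 and 4 counts in the joint nonmigrated libraries. Inflamed skin libraries were shallower than joint libraries, and site and depth cannot be told apart. In the comparison with steady state, site and control type (PBS for the joint, Naive for the skin) cannot be told apart either.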

How the results depend on the processing

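The 112 calls of members kept their direction in all 1705 recomputed values; 91 held under every alternative other than the stricter threshold, 15 were lost only without 1 library, and 67 held at an adjusted p under 0.001. Members called higher at that threshold were 4 (joint, migrated over nonmigrated), 3 (skin, same), 7 (joint over steady state), 1 (joint over skin, nonmigrated) and 0 (interaction of site and migration). Members called lower were 11 (joint, migrated over nonmigrated), 0 (joint over skin, migrated), 0 (interaction) and 2 (site difference in the change from steady state). In migrated cells, joint over skin, DESeq2 called 1 higher and 2 lower, and 2 were lower in the fit of all 18 samples, in the fit of only these groups, without a filter and with the replicate block. Over all genes and both directions, DESeq2 called 488 of 29303 there and the block 138 of 16777. The interaction called 3 lower by DESeq2 and 2 in the fit of all 18 samples, without a filter and with the block. Over all genes and both directions, it called 1756 of 29303 by DESeq2 and 826 of 16777 with the block. The site difference in the change from steady state called 1 higher by DESeq2, without a filter and with the block. Over all genes and both directions, it called 1283 of 29392 by DESeq2 and 773 of 17107 with the block. For the other settings no totals over all genes are given. Leaving out 1 library gave 1 to 3 higher and 0 to 3 lower for the interaction, 0 to 1 lower for joint over skin in migrated cells, and 0 to 1 higher for the site difference from steady state. Replicate numbers are shared between groups. Same-numbered migrated and nonmigrated libraries correlated in their deviations at 0.01, 0.14 and 0.19 in the joint and 0.10, 0.05 and 0.13 in the skin. Every skin migrated library and joint migrated replicates 2 and 3 correlated best with the nonmigrated library of their own number. Joint replicate 1 did not (0.01 against 0.06). Joint migrated and steady-state libraries of the same number correlated at -0.15, -0.11 and -0.13. The labels do not say whether same-numbered tissue and node libraries came from the same mice. The main test took no pairs, so it ignores any such pairing, and the replicate block was run as an alternative. With the block, 4 of the 112 calls were lost. The cause of these differences was not tested. For members near 3 counts in a library, depth limits what could be detected, most in the shallower inflamed skin libraries.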
